A study of Mus musculus with 2 samples.

Results

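The platelet-derived growth factor (PDGF) family was followed in mouse embryonic fibroblasts, mesenchymal cells grown from embryos. Its 7 genes were taken by symbol from a table of 23365 genes: the ligand genes Pdgfa, Pdgfb, Pdgfc and Pdgfd, the receptor genes Pdgfra and Pdgfrb, and Pdgfrl, which encodes a protein resembling the receptors. RNA sequencing had been done on wild-type cells and on cells with both TET1 and TET2 knocked out, with 1 library of each genotype. TET1 and TET2 oxidize 5-methylcytosine in DNA, and the series title asks how they bear on genes of development. The allele, the strain, the embryonic age, the passage and the number of embryos or cultures behind each library are not stated by the labels.

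The authors' deposited table sets condition B against condition A, called B and A from here on, and its columns name no genotype for either. The name of the table lists the wild type before the knock-out without tying either to a letter, and no genotype was assigned from that order. All ratios are therefore those of B over A, and the design's question, what loss of TET1 and TET2 does, is not given a direction here. Each gene has 1 mean normalized count, the mean over both conditions of its read count after scaling for library size, and 1 ratio. Values of the single libraries and their depth were not analysed here. There is thus no spread between replicates and no test of the genotypes, and the adjusted p-values quoted are the authors' own, from a comparison of 2 libraries.

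PDGFs are secreted dimers that stimulate the division and migration of mesenchymal cells. PDGF-A and PDGF-C bind mainly the receptor encoded by Pdgfra, PDGF-B binds both receptors, and PDGF-D binds mainly the one encoded by Pdgfrb. Binding joins pairs of receptor chains, which then phosphorylate each other and recruit signalling proteins to the membrane. In the embryo Pdgfra marks broad mesenchyme, including progenitors of fibroblasts, and Pdgfrb is known from the pericytes and smooth muscle of vessel walls. Fibroblasts in culture commonly carry both.

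Of the 7 genes, 5 had a higher value in B and 2 a higher value in A. A difference of 2-fold or more (log2 ratio 1 or beyond, either way), called the size rule here, was found for 3 of the 7, Pdgfra, Pdgfrl and Pdgfd, all higher in B. Among the 12401 genes whose mean normalized count was 50 or more, which include all 7, 17.9% met this rule, 8.31% toward B and 9.60% toward A. The median log2 ratio of the 7 genes was 0.66, and that of the 12401 genes was -0.04. An adjusted p under 0.1 per the authors' deposited table, a cut-off set here and called the p cut-off, was reached by 1 member, Pdgfra. Of the 17339 genes with a ratio in that table, 2.29% passed, and 1.42% passed with a higher value in B.

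**Figure D1:**
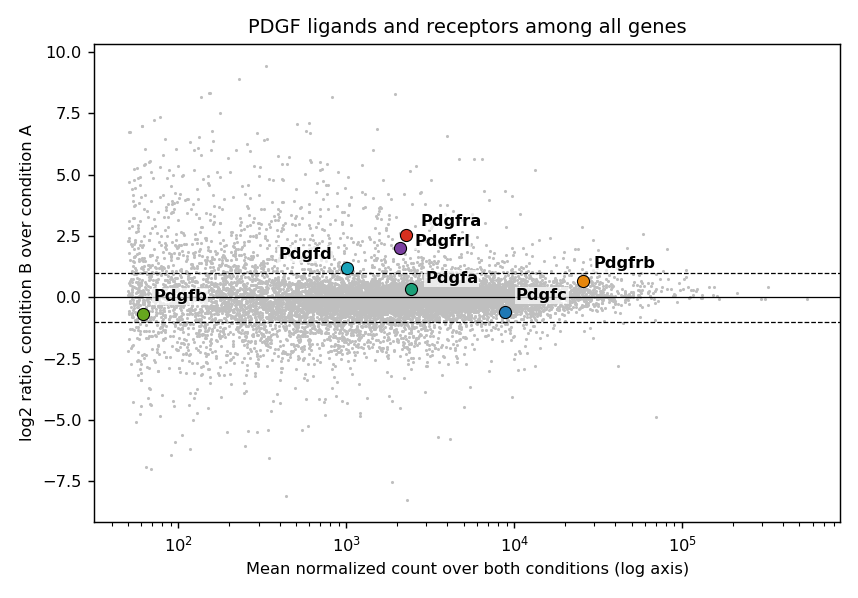
Each grey point is a gene whose mean normalized count is 50 or more and whose ratio is finite; the x axis is that mean over both conditions (log axis), the y axis the log2 ratio of B over A, and coloured points are the 7 PDGF genes. Dashed lines mark the size rule: Pdgfra, Pdgfrl and Pdgfd lie above the upper one and the other 4 between the lines.

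Pdgfra, the receptor chain for PDGF-A and PDGF-C, differed most within the family. The authors' deposited table gives it a mean normalized count of 2254 and a value 5.80-fold higher in B, a log2 ratio of 2.54 with an adjusted p of 0.0191. A ratio at least this high was found for 2.70% of the genes at the minimum mean. In RNA from whole cultures, more cells that express a gene and more RNA per cell cannot be told apart.

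Pdgfrb, the partner chain that binds PDGF-B and PDGF-D, had the highest mean count of the family, before any correction for length. That mean was 25524, a level reached by 2.52% of the genes at the minimum mean. The authors' deposited table puts Pdgfrb 1.58-fold higher in B, a log2 ratio of 0.66 with an adjusted p of 1. Both receptor genes thus lay toward B, and by unequal amounts. Computed from the deposited ratios, the count of Pdgfra relative to that of Pdgfrb was 3.67-fold higher in B than in A. This quantity compares 2 genes inside each library, so it does not depend on how the libraries were scaled.

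Pdgfrl encodes a secreted protein with immunoglobulin-like domains related to those outside the PDGF receptors, without a kinase. Its mean normalized count was 2087. The authors' deposited table lists Pdgfrl as 4.01-fold higher in B, a log2 ratio of 2.002. It did not pass the p cut-off, with a raw p of 0.00348 and an adjusted p of 0.135. The largest raw p that did pass in that table was 0.00226, so Pdgfrl lay just beyond the p cut-off. The count of Pdgfra relative to Pdgfrl differed 1.45-fold between conditions, less than that of Pdgfra relative to Pdgfrb.

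Of the 4 ligand genes, 1 met the size rule. Pdgfd, whose product is secreted as an inactive dimer and must be cut by a protease, was that gene. It had a mean normalized count of 1005 and was 2.32-fold higher in B per the authors' deposited table, a log2 ratio of 1.21 with a raw p of 0.0956 and an adjusted p of 1. Pdgfa, the classical ligand of the Pdgfra product, had a mean of 2415 and was 1.28-fold higher in B per the authors' deposited table (log2 ratio 0.35, adjusted p of 1). The log2 ratio of Pdgfa lay just above the upper quartile of all genes at the minimum mean, which was 0.30.

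Pdgfc, like Pdgfd a ligand with a CUB domain that is removed outside the cell, did not meet the size rule. Its mean normalized count was 8830, and the authors' deposited table has it 1.53-fold higher in A, a log2 ratio of -0.61 with an adjusted p of 1. Pdgfb, the ligand that binds both receptors and is known as a product of endothelial cells and platelets, had a mean of only 61.2. Its ratio per the authors' deposited table was 1.58-fold toward A (log2 ratio -0.66, adjusted p of 1). Ratios of genes this low scatter widely: of 1324 genes with a mean from 50 to 200, 45.6% met the size rule. The share was 29.5% of 2741 genes from 200 to 1000, 11.3% of 5266 genes from 1000 to 5000 and 6.91% of 3070 genes above that. Pdgfd, with a mean of 1005, lay at the lower edge of the range from 1000 to 5000. No difference in Pdgfb can be read from these libraries.

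Within the library pair, the balance of the ligands with a CUB domain differed most among ligands with a mean above 1000. The count of Pdgfd relative to Pdgfc was 3.54-fold higher in B than in A, computed from the deposited ratios. The count of Pdgfa relative to Pdgfc was 1.95-fold higher in B. Set against its receptor, the Pdgfc count relative to that of Pdgfra was 8.87-fold lower in B, and the Pdgfa count relative to Pdgfra 4.55-fold lower. For Pdgfd and its receptor gene Pdgfrb the count ratio was 1.46-fold higher in B.

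Levels of different genes can be compared only per length, and the plot of mean normalized counts per kilobase does so with GENCODE M21 transcripts. On that scale, with the longest transcript of each gene, Pdgfrb stood first with a level of 4707 per kilobase, followed by Pdgfc with 2508, Pdgfa with 1172 and Pdgfrl with 1009. Pdgfra and Pdgfd were close together, with 330 and 321 per kilobase, and Pdgfb was last with 20.8. The most abundant ligand transcript was thus Pdgfc, 2.14 times the level of Pdgfa, 7.81 times that of Pdgfd and 121 times that of Pdgfb. Pdgfrb had 14.3 times the level of Pdgfra, 11.2 times per kilobase of coding sequence, and 3.26 times with the median transcript length, because many of the 9 annotated Pdgfra transcripts are short. The spread over samples of these levels is unknown, so neighbours in this order, such as Pdgfra and Pdgfd, are not shown to differ. Per coding length Pdgfc stood above Pdgfrb.

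**Figure D2:**
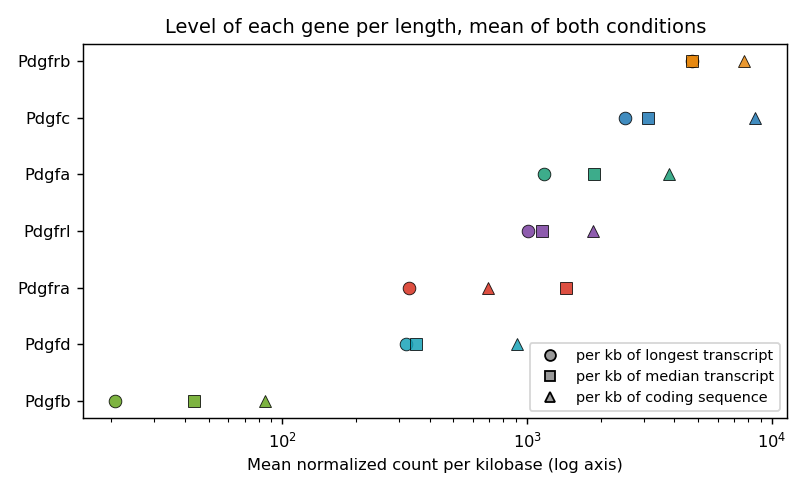
The x axis is the mean normalized count over both conditions per kilobase (log axis) for each of the 7 genes; circles use the longest GENCODE M21 transcript, squares the median transcript and triangles the coding sequence. Pdgfrb and Pdgfc hold the first 2 places and Pdgfb the last under each length, and Pdgfra moves most, from 330 with the longest transcript to 1444 with the median one.

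TET enzymes act on methylated cytosines, which in mammals lie mostly in CG pairs, so the stretch before the start is shown for the members that RefSeq's promoter table (GRCm38.p6) holds. The search gave 5 starts of 4 members, Pdgfra, Pdgfd, Pdgfc and Pdgfa. The lines give the 250 bases before the start, 5′ to 3′ on the gene's strand, for Pdgfra and Pdgfd, which were higher in B by the size rule, and for Pdgfc and 1 of the 2 Pdgfa starts, which did not meet it. Capitals mark CG pairs.
Pdgfra, chr5:75152001-75152250, plus strand: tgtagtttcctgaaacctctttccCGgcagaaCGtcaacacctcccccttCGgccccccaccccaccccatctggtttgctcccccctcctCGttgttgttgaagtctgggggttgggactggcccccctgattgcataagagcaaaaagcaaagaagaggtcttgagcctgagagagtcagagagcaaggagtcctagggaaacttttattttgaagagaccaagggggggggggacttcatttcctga
Pdgfd, chr9:6168236-6168485, plus strand: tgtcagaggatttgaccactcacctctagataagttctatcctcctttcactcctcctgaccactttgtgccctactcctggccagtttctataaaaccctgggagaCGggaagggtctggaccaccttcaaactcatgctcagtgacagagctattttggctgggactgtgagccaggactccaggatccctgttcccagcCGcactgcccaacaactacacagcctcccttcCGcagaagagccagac
Pdgfc, chr3:81036166-81036415, plus strand: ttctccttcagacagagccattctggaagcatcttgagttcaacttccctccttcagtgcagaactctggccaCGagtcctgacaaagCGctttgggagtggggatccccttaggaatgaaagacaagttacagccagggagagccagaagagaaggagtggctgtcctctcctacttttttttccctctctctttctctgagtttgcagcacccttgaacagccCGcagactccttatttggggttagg
Pdgfa, chr5:138994945-138995194, minus strand: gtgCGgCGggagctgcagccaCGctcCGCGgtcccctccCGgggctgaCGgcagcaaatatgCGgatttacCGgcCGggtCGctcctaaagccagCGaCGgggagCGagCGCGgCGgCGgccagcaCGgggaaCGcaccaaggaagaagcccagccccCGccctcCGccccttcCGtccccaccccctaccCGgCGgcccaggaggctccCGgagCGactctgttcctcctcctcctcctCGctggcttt

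The members shown differed in the CG content of this stretch. Pdgfra held 4 CG pairs in these 250 bases and Pdgfd and Pdgfc 3 each. The Pdgfa start shown held 28 and the other 19. Over all 32851 starts of the table the median was 6 pairs, and 7.61% had at least as many as the Pdgfa start shown, against 62.2% for Pdgfra and 71.0% for Pdgfd and Pdgfc. A GC box, searched as GGGCGG on both strands, occurred before both Pdgfa starts and before 32.7% of all starts, and before none of the other 3. A TATA box, searched as TATAAA on both strands, occurred before Pdgfd and before 12.4% of all starts. The data hold no methylation value, and the start used in these cells is not known.

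Genes beside the members had ratios in both directions. The 5 nearest listed genes on either side of each member, in RefSeq gene order, gave 70 neighbours, of which 42 reached the minimum mean of 50. By the size rule 6 of the 42 were higher in B and 5 higher in A. Of all genes at that minimum, 8.31% were higher in B and 9.60% higher in A by this rule. Next to Pdgfra, Kit, which encodes a related receptor, had a mean of only 4.48, and Gm19583 on the other side is listed at 0. Kdr, the vascular endothelial growth factor (VEGF) receptor gene beyond Kit, had a log2 ratio of 2.78 per the authors' deposited table at a mean of 418 and an adjusted p of 0.100136, just over the cut-off. The other 5 neighbours of Pdgfra at the minimum mean had log2 ratios from -0.17 to 0.92 per the authors' deposited table.

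Pdgfrl lay between genes that differed in opposite directions. Mtus1, a microtubule-associated gene on one side, was higher in B with a log2 ratio of 2.76 (adjusted p = 0.00563) per the authors' deposited table. Slc7a2, a transporter of cationic amino acids on the other side, had a log2 ratio of -2.39 with an adjusted p of 0.0371 per the authors' deposited table. The direct neighbours of Pdgfd, Casp12 and Ddi1, had means of 2135 and 0.474, and Casp12 had a log2 ratio of 0.00 per the authors' deposited table. Casp4, next beyond Casp12, lay at -1.66 per the authors' deposited table, with an adjusted p of 1.

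Near the remaining members, Apobec3, a cytidine deaminase gene beside Cbx7, was the neighbour of Pdgfb that passed the p cut-off, with a log2 ratio of -3.24 per the authors' deposited table (adjusted p = 0.00544). The genes directly beside Pdgfb, Cbx7 and Rpl3, had log2 ratios of -0.75 and -0.07 per the authors' deposited table, and Syngr1 had 1.51. Glrb and Ctso, beside Pdgfc, lay at -0.49 and 0.24 per the authors' deposited table, and the guanylate cyclase genes Gucy1b3 and Gucy1a3, farther along, at 2.44 and 2.49 without passing. Csf1r, the receptor gene beside Pdgfrb, had a mean of 64.1 and a log2 ratio of 1.05 per the authors' deposited table, Cdx1 on the other side had a mean of 3.11, and Tcof1 lay at -1.15. Beside Pdgfa, Prkar1b had a log2 ratio of -1.09 per the authors' deposited table, and Gm5294 had a mean of 0.474.

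**Figure D3:**
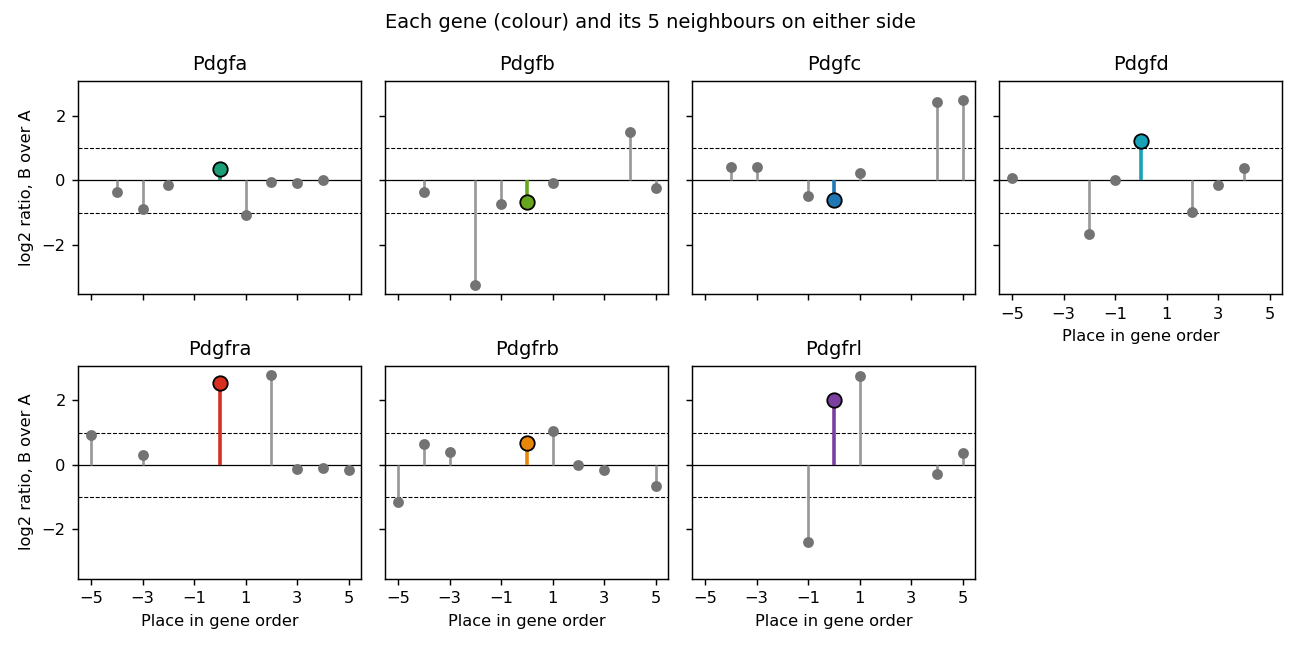
Each panel places 1 PDGF gene (coloured point at place 0) among its 5 neighbours on either side in RefSeq gene order (x axis), with the log2 ratio of B over A on the y axis; neighbours with a mean normalized count under 50 are left out, and dashed lines mark the size rule. Beside Pdgfra only Kdr lies above the upper line, and the genes on either side of Pdgfrl point in opposite directions.

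Another list holds genes of proteins that release PDGF dimers or hold them outside the cell. Of its 13 genes, 2 were higher in B and 1 higher in A by the size rule, and their median log2 ratio was 0.30. This count and those of the lists below stand beside shares of 8.31% toward B and 9.60% toward A among all genes at the minimum mean. Pcsk5, a proprotein convertase that cleaves secreted precursors, was 8.99-fold higher in B per the authors' deposited table with a mean count of 858 (adjusted p = 0.00672) and was the gene of this list that passed. St14, a membrane serine protease, had a log2 ratio of 1.93 per the authors' deposited table at a mean of 151 and an adjusted p of 1. Cspg4, the proteoglycan NG2, which binds PDGF-A, lay at -1.33 per the authors' deposited table, with an adjusted p of 0.617. Tissue plasminogen activator (Plat) and urokinase (Plau) are among the proteases that activate PDGF-C and PDGF-D. Their genes had log2 ratios of 0.13 and 0.05 per the authors' deposited table.

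Genes of signalling proteins at the receptor mostly had ratios near 1. Of 33 genes at the minimum mean, 0 were higher in B by the size rule and 1 was higher in A, with a median log2 ratio of 0.07, and 0 passed the p cut-off. The exception was Pik3cb, a catalytic subunit of phosphoinositide 3-kinase, with a log2 ratio of -1.92 per the authors' deposited table (adjusted p = 0.160). The adaptor genes Grb2 and Shc1 had log2 ratios of 0.08 and 0.12, the phosphatase gene Ptpn11 0.18 and the phospholipase gene Plcg1 -0.19 per the authors' deposited table.

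Among genes that damp receptor signalling, 3 of 18 were higher in B by the size rule and 0 higher in A, and their median log2 ratio was 0.10. Spry1, a Sprouty inhibitor of the Ras pathway that receptor signalling itself induces, was 8.48-fold higher in B per the authors' deposited table at a mean of 4594 (adjusted p = 0.000855). Its relatives Spry4 and Spry2 had log2 ratios of 1.42 and 0.82 per the authors' deposited table, without passing. Sh3kbp1, which links the ubiquitin ligase Cbl to receptor uptake, lay at 1.78 with an adjusted p of 0.169, and Cbl itself at -0.77, per the authors' deposited table.

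Genes known to be induced within hours by PDGF or serum went both ways, more of them toward B by the size rule. Of 22 genes, 7 were higher in B and 1 higher in A by that rule, and their median log2 ratio was 0.07. Of all genes at the minimum mean, 8.31% were higher in B and 9.60% higher in A. Fosb and Fos, subunits of the AP-1 factor, were 8.17-fold and 3.997-fold higher in B per the authors' deposited table (adjusted p = 0.000885 and 0.0827). Ccl2, a chemokine gene first found as induced by PDGF, was 8.15-fold higher per the authors' deposited table (adjusted p = 0.00153). These 3 passed the p cut-off. Of the others, Cxcl1, Nr4a1 and Btg2 had log2 ratios of 1.73, 1.30 and 1.15 and Egr3 one of -1.93 per the authors' deposited table. Egr1 and Myc lay at -0.38 and -0.45 per the authors' deposited table.

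Receptors related to those of PDGF and their ligands went both ways, more of them toward B. Of 13 genes at the minimum mean, 6 were higher in B and 2 higher in A by the size rule, and their median log2 ratio was 0.90. Kitl, the ligand of Kit, was 9.12-fold higher in B per the authors' deposited table (adjusted p = 0.00176), and Figf, which encodes VEGF-D, was 5.22-fold higher (adjusted p = 0.0223). Flt1, a VEGF receptor gene, was 4.503-fold higher per the authors' deposited table (adjusted p = 0.0908). Vegfc had a log2 ratio of 2.20 and the cytokine genes Il34 and Flt3l ratios of -1.99 and -1.59 per the authors' deposited table, none of them passing.

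**Figure D4:**
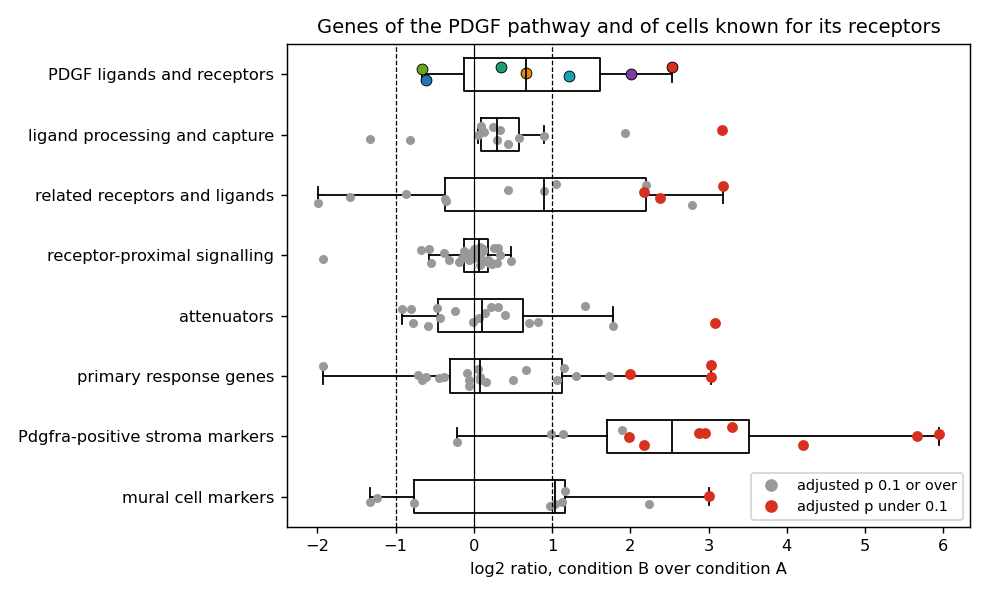
The x axis is the log2 ratio of B over A and each row a gene list, with points for genes at the minimum mean of 50, boxes for the quartiles and whiskers for the furthest gene within 1.5 box lengths. In the top row colours only tell the 7 PDGF genes apart; in the other rows red marks an adjusted p under 0.1 per the authors' deposited table. Receptor-proximal signalling genes crowd around 0, and markers of Pdgfra-positive stroma lie mostly right of the upper dashed line.

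Markers of the stromal cells known for Pdgfra were mostly higher in B. Of 12 at the minimum mean, 10 were higher in B by the size rule and 0 higher in A. Among all genes at that mean, 8.31% were higher in B by this rule. The median log2 ratio of the 12 was 2.53, and 8 passed the p cut-off. The listed markers Dpp4 and Tcf21, with means of 6.06 and 2.37, fell below the minimum. Pi16 and Dpt, genes of a fibroblast type found in many organs, had log2 ratios of 5.95 and 2.95 per the authors' deposited table (adjusted p = 0.000273 and 0.0691). Lum, a small proteoglycan, was 9.81-fold and Fap, a membrane protease of activated fibroblasts, 18.4-fold higher in B per the authors' deposited table (adjusted p = 0.0330 and 0.0174). At these ratios Pi16 and Fap, with means of 268 and 248, met the minimum mean only through their counts in B. Ly6a and Cd248 lay at 2.18 and 1.98 per the authors' deposited table, both passing, and Dcn and Thy1 at 5.66 and 2.88, also passing. Twist1, a mesenchymal transcription factor, lay at -0.22 and Twist2 at 0.99 per the authors' deposited table. Cd34 and Prrx1, with log2 ratios of 1.89 and 1.14 per the authors' deposited table, did not pass. Dcn and Thy1 were already known to be higher in B when the list was drawn up, so its count is no independent evidence, and its part in the Pdgfra ratio was not tested.

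Markers of the mural cells of vessels, known for Pdgfrb, were mixed. Of 9 at the minimum mean, 5 were higher in B and 2 higher in A by the size rule, and their median log2 ratio was 1.03. Myh11, smooth muscle myosin, was the gene that passed, 8.03-fold higher in B per the authors' deposited table (adjusted p = 0.00344). Rgs5, a pericyte gene, had a log2 ratio of -1.23, Tbx18 one of 2.23 and Ndufa4l2 one of 1.17 per the authors' deposited table, and none of these 3 passed. Cspg4 and Mcam, with means of 12419 and 14456, had log2 ratios of -1.33 and 0.98 per the authors' deposited table. Notch3, Des and Anpep lay at 1.03, 1.13 and -0.77 per the authors' deposited table. The other listed markers fell below the minimum mean. Abcc9, Kcnj8, Heyl and Higd1b had means of 12.8, 9.33, 33.2 and 0.474, and Vtn is listed at 0. The part of the mural markers in the Pdgfrb ratio was not tested.

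The label of the cells was checked with genes of fibroblasts and of other cell types. All 10 fibroblast genes passed the minimum mean, with a mean of 550534 for Fn1, and their median log2 ratio was 0.34. By the size rule 2 of the 10, Postn and S100a4, were higher in B, with log2 ratios of 2.60 (adjusted p = 0.00528) and 1.63 (adjusted p = 0.267) per the authors' deposited table. Mean normalized counts summed to 394 over 9 endothelial markers and 224 over the 9 listed blood and immune markers (counts not corrected for gene length). Pecam1 and Cdh5, which define endothelium, had means of 9.80 and 8.43, and Ptprc, of blood cells, one of 3.53. Of 3 blood and immune markers at the minimum mean, 2 were higher in B by the size rule, Lyz2 and Csf1r. With means of 94.7 and 64.1, they had log2 ratios of 3.84 and 1.05 per the authors' deposited table, without passing. At these ratios both met the minimum mean only through their counts in B. Cd68 lay at 0.18 per the authors' deposited table. The endothelial genes Emcn and Erg, with means of 96.3 and 106, passed the p cut-off in opposite directions. Their log2 ratios were 6.06 and -5.62 per the authors' deposited table (adjusted p = 0.0638 and 0.0690). At these ratios Emcn met the minimum mean only through its counts in B, and Erg only through its counts in A. Epithelial markers summed to 1301, of which Krt19 made 1146, and skeletal muscle markers to 360, of which Des made 340. Neural markers summed to 9729, nearly all from the tubulin gene Tubb3 and Map2, with Rbfox3 listed at 0.

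Oligodendrocyte precursors are the neural cells known for Pdgfra. Their defining genes Olig1, Olig2 and Sox10 had means of 1.05, 0.527 and 31.0. Ptprz1, the only gene of that list at the minimum mean, was 27.4-fold higher in B per the authors' deposited table at a mean of 3196 (adjusted p = 1.60e-07). Its part in the Pdgfra ratio was not tested.

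By likeness of ratio alone, the 3 genes nearest to Pdgfra among 139 listed genes at the minimum mean were Postn, Figf and Kdr. Their log2 ratios differed from that of Pdgfra by 0.06, 0.15 and 0.25. This likeness rests on 2 conditions and 1 ratio per gene.

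The targeted genes are given for reference. In the authors' deposited table Tet1 was 3.54-fold and Tet2 1.67-fold higher in A, with means of 313 and 704 and adjusted p-values of 0.851 and 1. Both were thus lower in B, and neither passed the p cut-off. No genotype was assigned to a condition from these values.

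**Figure D5:**
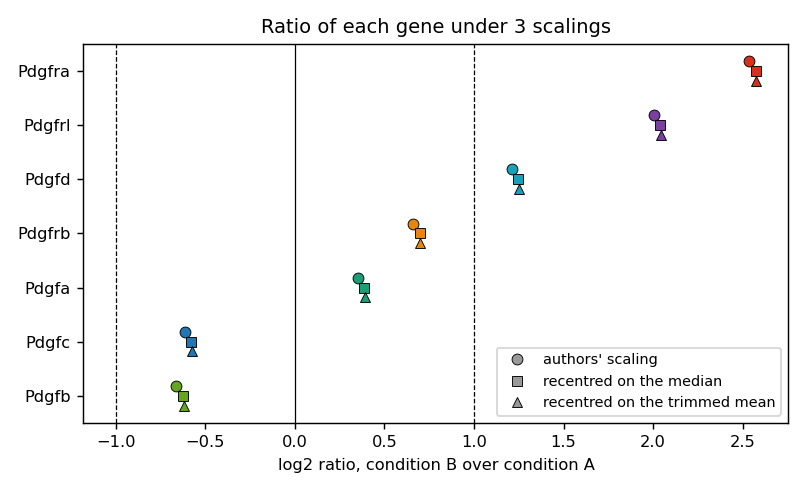
The log2 ratio of B over A (x axis) is shown for each of the 7 genes with the authors' scaling (circles), after recentring on the median gene (squares) and after recentring on the trimmed mean (triangles). Both shifts are about 0.04, and each gene keeps its side of 0 and of the dashed lines.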

How the data were processed

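RNA from frozen cell pellets was made into libraries with a TruSeq RNA v2 kit, per the labels' protocols; this kit does not mark strand, so overlapping antisense genes cannot be told apart. TopHat2 2.0, DESeq and the build mm9 are named in the submitters' processing notes; counter and annotation: not given in the sources used here. As signal, the deposited table holds the authors' mean over both conditions of counts divided by size factors. The deposited ratio (fold) and its log2 value are of condition B over condition A, with no pseudocount. P-values, raw and adjusted, are the authors'. The table has 2 further columns of values, 1 per condition, whose names match neither sample's labels, so they were not used, and no counting interval or depth is given.

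The members and 14 gene lists (188 distinct genes, 186 in the table) were chosen with earlier results of these data known. Named genes were the members, list genes past an adjusted p of 0.1, up to 4 others per list with the largest ratios, direct neighbours, neighbours meeting the size rule, and the 3 nearest to Pdgfra; a few further list genes were named after their values were seen. Neighbours came from RefSeq (GRCm38.p6), which placed 23172 genes by symbol or unshared synonym. Analyses used Python 3.11.15, pandas 2.3.3 and numpy 2.4.6. The trimmed mean (leaving out 30% of ratios and 5% of abundances at either extreme) and the size rule were tested on simulated data. The simulated ratios scattered less than the real ones and held large changes only. That test therefore checked the computation and does not give the rate of false calls in these data.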

Additional observations from a re-analysis of the deposited data

How the results depend on the processing

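With the libraries recentred on the trimmed mean or on the median of all ratios, each of the 7 members kept its direction and its side of the size rule. At a difference of 1.5-fold, 6 members qualified in place of 3, the added ones being Pdgfrb toward condition B and Pdgfb and Pdgfc toward condition A. At a log2 ratio of at least 2, 2 members qualified, Pdgfra and Pdgfrl, the latter at 2.002. An adjusted p under 0.05 left 1 member, Pdgfra. With the median transcript length 5 of the 7 members kept their place in the order of levels, and with the coding length 3 did.

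Counts over the lists depend on the size asked for. At 1.5-fold they became 5 in place of 3 for ligand processing and capture, 2 in place of 1 for receptor-proximal signalling and 9 in place of 3 for attenuators. At a log2 ratio of at least 2 they became 1 for ligand processing, 5 in place of 8 for related receptors and ligands, 0 for receptor-proximal signalling, 1 for attenuators, 2 in place of 8 for primary response genes, 2 in place of 7 for mural markers, 1 in place of 2 for fibroblast markers and for blood markers, and 0 in place of 1 for skeletal muscle markers. With a minimum mean of 200 they became 5 for related receptors and ligands and 0 for endothelial, blood and epithelial markers. With a minimum of 10 they became 3 in place of 1 for oligodendrocyte precursor and 2 in place of 1 for epithelial markers. With none they became 5 for oligodendrocyte precursor, 6 in place of 3 for endothelial, 7 for epithelial, 1 in place of 0 for neural and 4 for skeletal muscle markers. The other list alternatives, including recentring, stayed within 1.5 times; for the 10 Pdgfra-positive stroma markers this held for all of them.

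No paired analysis was possible because each genotype has 1 library. No replicate was left out. The planned pseudocount was not run, because the columns of each condition were not used.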
